A study of Mus musculus with 6 samples.

Results

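The genes described here are the contractile genes of smooth muscle, namely Acta2, Actg2, Myh11, Cnn1, Tagln, Smtn, Des, Lmod1, Mylk and Synpo2. They were chosen by name: every probe set to which the platform annotation gives exactly 1 of these symbols was taken. All 10 genes were represented, by 19 of the 45037 probe sets that are not controls. The data are lung RNA profiles of adult female F1 mice on Affymetrix arrays, with 3 arrays from (AKR/J x FVB/NJ)F1 mice (AKR_F1) and 3 from (DBA/2J x FVB/NJ)F1 mice (DBA_F1). Every animal carried an FVB/NJ chromosome set, no treatment was given, and the animals were killed by cervical dislocation under Avertin before the tissue was frozen. The design asks which genes differ between the genotypes at rest. The labels do not say that each array is a separate animal, so p-values measure the difference against the spread between these samples, which may be technical.

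Smooth muscle contracts when calcium and calmodulin activate myosin light chain kinase, which phosphorylates the light chains of smooth muscle myosin and lets it pull on actin filaments. Genes for this machinery are switched on together by serum response factor and its partner myocardin, which bind a short A/T-rich element called the CArG box. In the lung these cells surround the airways and the vessels, and the oesophagus, trachea and large vessels next to the lung carry muscle coats of their own.

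The promoter of Acta2 is printed because CArG elements near its start are the textbook case of this control. Those of Cnn1 and Mylk are printed because these genes had the lowest and the highest adjusted p among the 10. Each sequence runs from 250 bases before the RefSeq start site to 50 after it, on build GRCm38.p6, 5′ to 3′ on the strand of the gene. Capitals mark a CArG box that holds 1 G or C among the 6 core letters that are otherwise A or T. The window of Acta2 lies at chr19:34255324-34255623 on the minus strand, that of Cnn1 at chr9:22099003-22099302 on the plus strand, and that of Mylk at chr16:34784700-34784999 on the plus strand.
Acta2: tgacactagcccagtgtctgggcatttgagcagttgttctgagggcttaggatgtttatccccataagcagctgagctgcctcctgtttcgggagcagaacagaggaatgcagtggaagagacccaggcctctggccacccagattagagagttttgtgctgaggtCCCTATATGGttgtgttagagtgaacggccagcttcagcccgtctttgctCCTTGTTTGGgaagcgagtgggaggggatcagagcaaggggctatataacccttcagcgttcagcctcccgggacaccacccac
Cnn1: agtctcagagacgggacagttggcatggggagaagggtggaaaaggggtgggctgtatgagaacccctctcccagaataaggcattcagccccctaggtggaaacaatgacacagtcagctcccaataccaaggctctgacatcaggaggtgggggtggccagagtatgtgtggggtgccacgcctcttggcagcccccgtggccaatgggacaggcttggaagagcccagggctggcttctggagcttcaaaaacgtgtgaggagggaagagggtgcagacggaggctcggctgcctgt
Mylk: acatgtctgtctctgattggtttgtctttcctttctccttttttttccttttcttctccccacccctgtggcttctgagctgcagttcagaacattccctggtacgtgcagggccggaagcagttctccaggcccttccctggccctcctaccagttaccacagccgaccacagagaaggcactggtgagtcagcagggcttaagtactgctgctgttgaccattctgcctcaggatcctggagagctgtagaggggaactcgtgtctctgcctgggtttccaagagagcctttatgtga
The Acta2 window holds CCCTATATGG, whose first base lies 84 bases before the start site, and CCTTGTTTGG, 34 bases before it. RefSeq windows were found for 7 of the 10 genes (also for Smtn, Des, Lmod1 and Synpo2), and not for Actg2, Myh11 and Tagln. An exact CArG box was in 0 of the 7 windows and in 1.63% of all 32851 windows, and the form with 1 G or C was in 1 of the 7, that of Acta2, and in 8.5% of all windows. The E-box CANNTG was in 6 of the 7 (all but Mylk), against 72.3% of all windows. The CArG box and CANNTG read the same on both strands, so 1 search covers both. TATAAA, searched on both strands, was in the Synpo2 window, against 13.6% of all windows. A missing match says only that these letters are not in this window.

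On the arrays all 10 genes had a lower mean in AKR_F1 lung than in DBA_F1 lung, against 44.9% of the 13202 genes tested. The differences ran from -0.55 log2 for Des to -0.01 for Mylk, with a median of -0.32, against 0.02 for all genes tested. None passed the test. By limma's moderated test with Benjamini-Hochberg adjustment over 27022 probe sets, 0 of the 10 genes were called at an adjusted p under 0.05, against 2.48% of all genes (1.42% higher and 1.06% lower in AKR_F1), and 0 of their 15 tested probe sets, against 2.62% of all probe sets. The lowest adjusted p was 0.0968 (Cnn1). At an unadjusted p under 0.05 there were 5 of 10, all with a lower mean in AKR_F1, against 8.41% of all genes in that direction and 19.1% in either. The groups did not overlap for 2 of the 10 genes, both with lower values in AKR_F1, against 10% of all genes in that direction and 24.2% in either. A difference is AKR_F1 minus DBA_F1 on the log2 scale, SE is the moderated standard error, and each gene is represented by its probe set with the highest mean over the 6 arrays. Since probe sets differ in brightness, signals are compared between arrays and not between genes.

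**Figure D1:**
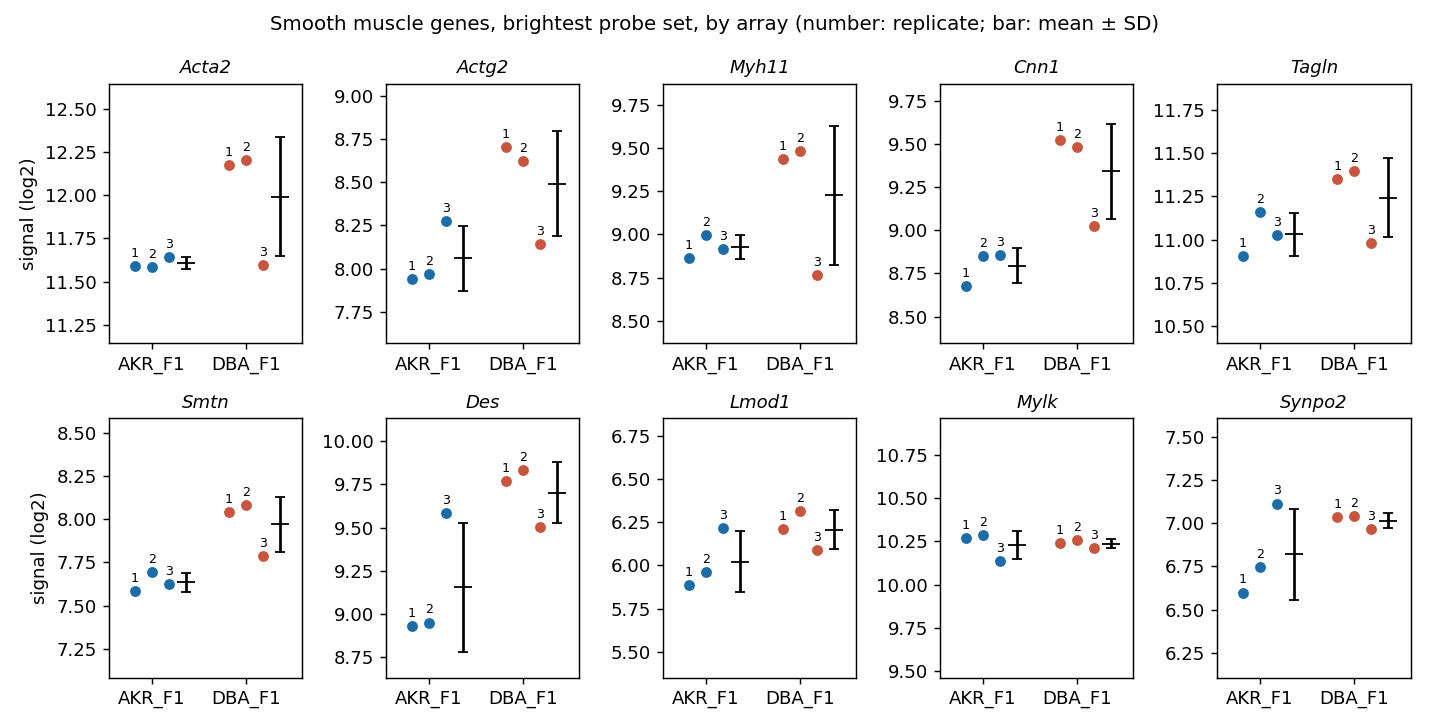
Log2 signal (vertical axis) of the brightest probe set of each of the 10 genes, with AKR_F1 at the left and DBA_F1 at the right of each panel; the number is the replicate and the bar is the mean ± SD of 3 arrays. Every panel spans the same log2 range, and DBA_F1 replicate 3 is the lowest DBA_F1 array in all 10.

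The actins form the thin filaments. Smooth muscle alpha-actin (Acta2) had 11.59, 11.59 and 11.64 in AKR_F1 replicates 1 to 3, against 12.17, 12.20 and 11.59 in DBA_F1 replicates 1 to 3. DBA_F1 replicate 3 lay among the AKR_F1 arrays, so the groups overlapped, and the SD was 0.34 in DBA_F1 where it was 0.03 in AKR_F1. The difference was -0.38 ± 0.15 (SE, n = 3 per group, limma adjusted p = 0.248). Without DBA_F1 replicate 3 it was -0.58 and was called (limma adjusted p = 0.00506). In the other leave-one-out fits it was not called, with differences as small as -0.28 and limma adjusted p up to 0.531. By Affymetrix's naming this probe set (1416454_s_at) can match transcripts of more than 1 gene. Skeletal alpha-actin (Acta1) was 13.12 in AKR_F1 replicate 3 and 7.48 and 6.07 in AKR_F1 replicates 1 and 2, arrays on which the Acta2 signal differed by at most 0.06. The part of other actin transcripts in the Acta2 signal was not tested. Smooth muscle gamma-actin (Actg2), the main actin of gut muscle, had 7.94, 7.97 and 8.27 in AKR_F1 replicates 1 to 3, against 8.70, 8.63 and 8.14 in DBA_F1 replicates 1 to 3. The groups overlapped through replicate 3 of each. The difference was -0.43 ± 0.16 (limma adjusted p = 0.223, SE, n = 3 per group), and it ran from -0.60 to -0.32 with 1 array left out, called in 0 of those 6 fits.

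The motor and the proteins that sit on the thin filament followed. Smooth muscle myosin heavy chain (Myh11), the defining motor of the cell type, had 8.86, 9.00 and 8.92 in AKR_F1 replicates 1 to 3, against 9.44, 9.48 and 8.76 in DBA_F1 replicates 1 to 3. DBA_F1 replicate 3 was the lowest of all 6 arrays. The difference was -0.30 ± 0.18 (limma adjusted p = 0.427), and -0.53 without DBA_F1 replicate 3, where it was called (limma adjusted p = 0.0162). No other leave-one-out fit called it, and there it was as small as -0.17 (limma adjusted p up to 0.752). Calponin (Cnn1), which binds actin and slows the myosin motor, had 8.68, 8.85 and 8.85 in AKR_F1 replicates 1 to 3, against 9.52, 9.48 and 9.02 in DBA_F1 replicates 1 to 3. Every DBA_F1 array lay above every AKR_F1 array, by 0.17 at the nearest. The difference was -0.55 ± 0.13, or a DBA_F1 over AKR_F1 fold of 1.46 (limma adjusted p = 0.0968). It was called when DBA_F1 replicate 3 was left out (-0.71, limma adjusted p = 0.0131) and with array weights (-0.61, limma adjusted p = 0.0401), a fit that called 4.48% of all genes and 1.82% in that direction. With any other array left out Cnn1 was not called, with differences as small as -0.46 (limma adjusted p up to 0.288). Transgelin (Tagln), a calponin relative that bundles actin, had 10.91, 11.16 and 11.03 in AKR_F1 replicates 1 to 3, against 11.35, 11.40 and 10.98 in DBA_F1 replicates 1 to 3. The groups overlapped, and the difference was -0.21 ± 0.12 (limma adjusted p = 0.396); leaving out DBA_F1 replicate 3 gave -0.34 and leaving out DBA_F1 replicate 2 gave -0.13, with no call in either fit.

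Smoothelin (Smtn), an actin-binding protein of fully differentiated contractile cells, had 7.59, 7.69 and 7.63 in AKR_F1 replicates 1 to 3, against 8.04, 8.08 and 7.79 in DBA_F1 replicates 1 to 3. The groups did not overlap, with 0.09 between the nearest arrays. The difference was -0.33 ± 0.09 (limma adjusted p = 0.112), and -0.43 without DBA_F1 replicate 3, where it was called (limma adjusted p = 0.0302). Leaving out any other array gave no call, with differences as small as -0.28 (limma adjusted p up to 0.313). Leiomodin 1 (Lmod1), which starts new actin filaments in smooth muscle, had 5.88, 5.96 and 6.22 in AKR_F1 replicates 1 to 3, against 6.21, 6.32 and 6.09 in DBA_F1 replicates 1 to 3. AKR_F1 replicate 3 lay inside the DBA_F1 range. The difference was -0.18 ± 0.11 (limma adjusted p = 0.418).

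Myosin light chain kinase (Mylk) stood at the other end. Its brightest probe set had 10.27, 10.29 and 10.14 in AKR_F1 replicates 1 to 3, against 10.24, 10.26 and 10.21 in DBA_F1 replicates 1 to 3, so that the groups lay on top of each other. The difference was -0.01 ± 0.05 with a 95% interval from -0.13 to 0.12 (limma adjusted p = 0.970). The other probe sets of Mylk differed by 0.10 (1425504_at, 95% interval -0.09 to 0.30) and -0.05 (1425505_at, 95% interval -0.23 to 0.12). The Mylk gene also makes a long form that is abundant in endothelium and other cells without smooth muscle myosin, and the files do not say which form each probe set reads.

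**Figure D2:**
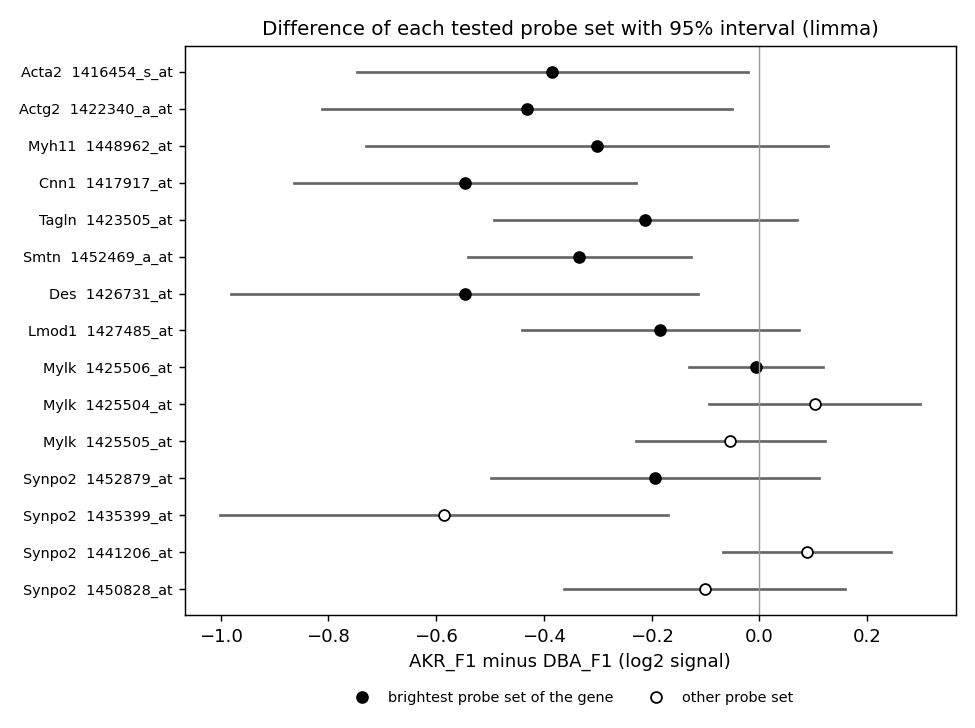
AKR_F1 minus DBA_F1 difference in log2 signal (horizontal axis) for the 15 tested probe sets, with the 95% interval of the limma fit; filled points are the brightest probe set of a gene. The intervals of Acta2, Actg2, Cnn1, Smtn, Des and 1 Synpo2 probe set lie below 0 before adjustment, and those of the 3 Mylk probe sets span it.

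Desmin (Des), the intermediate filament of smooth, skeletal and heart muscle, had 8.93, 8.95 and 9.59 in AKR_F1 replicates 1 to 3, against 9.77, 9.83 and 9.50 in DBA_F1 replicates 1 to 3. AKR_F1 replicate 3 stood 0.65 above the mean of AKR_F1 replicates 1 and 2 and inside the DBA_F1 range. The difference was -0.55 ± 0.18 (limma adjusted p = 0.186). Without AKR_F1 replicate 3 it was -0.76 and was called (limma adjusted p = 0.0111). In the other leave-one-out fits it was not called, with differences as small as -0.43 and limma adjusted p up to 0.437. The mean of 12 skeletal muscle markers, among them Acta1 and Myh1, was 5.50, 5.05 and 9.07 in AKR_F1 replicates 1 to 3, against 8.51, 8.98 and 8.53 in DBA_F1 replicates 1 to 3, so it too was low in AKR_F1 replicates 1 and 2. With the skeletal muscle mean as a covariate the Des difference was -0.18 (limma adjusted p = 0.573). That fit called 1.11% of all genes, against 2.48% without the covariate. With the mean of the adipose markers, given below, as the covariate Des differed by -0.66. The part of skeletal muscle in the Des difference was not tested.

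Synaptopodin 2 (Synpo2), an actin-binding protein of the Z-disc in striated muscle and of smooth muscle, was read by 4 probe sets that did not show the same pattern. The brightest, 1452879_at, had 6.60, 6.74 and 7.11 in AKR_F1 replicates 1 to 3, against 7.04, 7.04 and 6.96 in DBA_F1 replicates 1 to 3. It was low in AKR_F1 replicates 1 and 2 alone, and differed by -0.19 ± 0.13 (limma adjusted p = 0.472). Probe set 1435399_at had 6.21, 6.60 and 6.45 in AKR_F1 replicates 1 to 3, against 7.21, 7.18 and 6.62 in DBA_F1 replicates 1 to 3. Here AKR_F1 replicate 3 was not raised, the groups did not overlap, and the difference was -0.58 ± 0.18 (limma adjusted p = 0.150). It was called without DBA_F1 replicate 3 (-0.77, limma adjusted p = 0.0377). Leaving out any other array gave no call, with differences as small as -0.48 (limma adjusted p up to 0.392). Probe sets 1450828_at and 1441206_at differed by -0.10 and 0.09 (limma adjusted p = 0.676 and 0.532). For 1441206_at the groups did not overlap either, in the other direction, with 5.96 to 5.97 in AKR_F1 and 5.81 to 5.91 in DBA_F1. Which transcripts each of the 4 probe sets reads is not given in the sources used here.

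The 4 remaining probe sets (1444105_at and 1456658_at of Acta2, 1418122_at of Myh11 and 1426732_at of Des) fell under the filter on low signal, a mean of 4.72. Their means over the 6 arrays were 3.50 to 4.43, and their group means differed by -0.17 to 0.03 with no test. All 10 genes passed the filter through another probe set, so the filter removed none of them.

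Most of the genes had the same arrays high and low. The median of the 10 profiles, each centred on its own mean, was -0.23, -0.16 and -0.10 in AKR_F1 replicates 1 to 3, against 0.29, 0.31 and -0.03 in DBA_F1 replicates 1 to 3. DBA_F1 replicate 3 was the lowest DBA_F1 array for 10 of 10 genes, against 35.6% of all genes tested, by 0.04 (Mylk) to 0.69 (Myh11) below the mean of DBA_F1 replicates 1 and 2. Those replicates lay within 0.10 of each other for all 10 genes. AKR_F1 replicate 3 was the highest AKR_F1 array for 6 of 10 genes, against 28.8% of all genes, and it stood above the mean of AKR_F1 replicates 1 and 2 by 0.65 for Des, 0.44 for Synpo2, 0.32 for Actg2 and 0.29 for Lmod1. For Acta2, Myh11, Tagln, Smtn and Cnn1 that step was between -0.02 and 0.09, and for Mylk it was -0.14. For Acta2 and Myh11 the low arrays were all 3 of AKR_F1 and DBA_F1 replicate 3, while they were chiefly AKR_F1 replicates 1 and 2 for Des, Lmod1 and the brightest Synpo2 probe set.

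Smtn lay nearest to the median profile, with a mean absolute distance of 0.04 log2 over the 6 arrays, followed by Tagln (0.07) and Acta2 (0.08). Mylk and Des lay farthest (0.18 each). Outside the list, among 3543 genes with enough range, the nearest were the respiratory chain genes Ndufs3 (complex I), Uqcrc2 (complex III), Sdhb (complex II) and Cox5a (complex IV), the glutathione transferase Gstm5 and the peroxisomal phytanoyl-CoA hydroxylase Phyh, at 0.02 to 0.04. Ndufs3, the nearest, had 10.11, 10.16 and 10.18 in AKR_F1 replicates 1 to 3, against 10.55, 10.64 and 10.26 in DBA_F1 replicates 1 to 3, and differed by -0.33 ± 0.09 (limma adjusted p = 0.134). None of the 6 genes was called (limma adjusted p = 0.134 to 0.178; limma, as above).

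**Figure D3:**
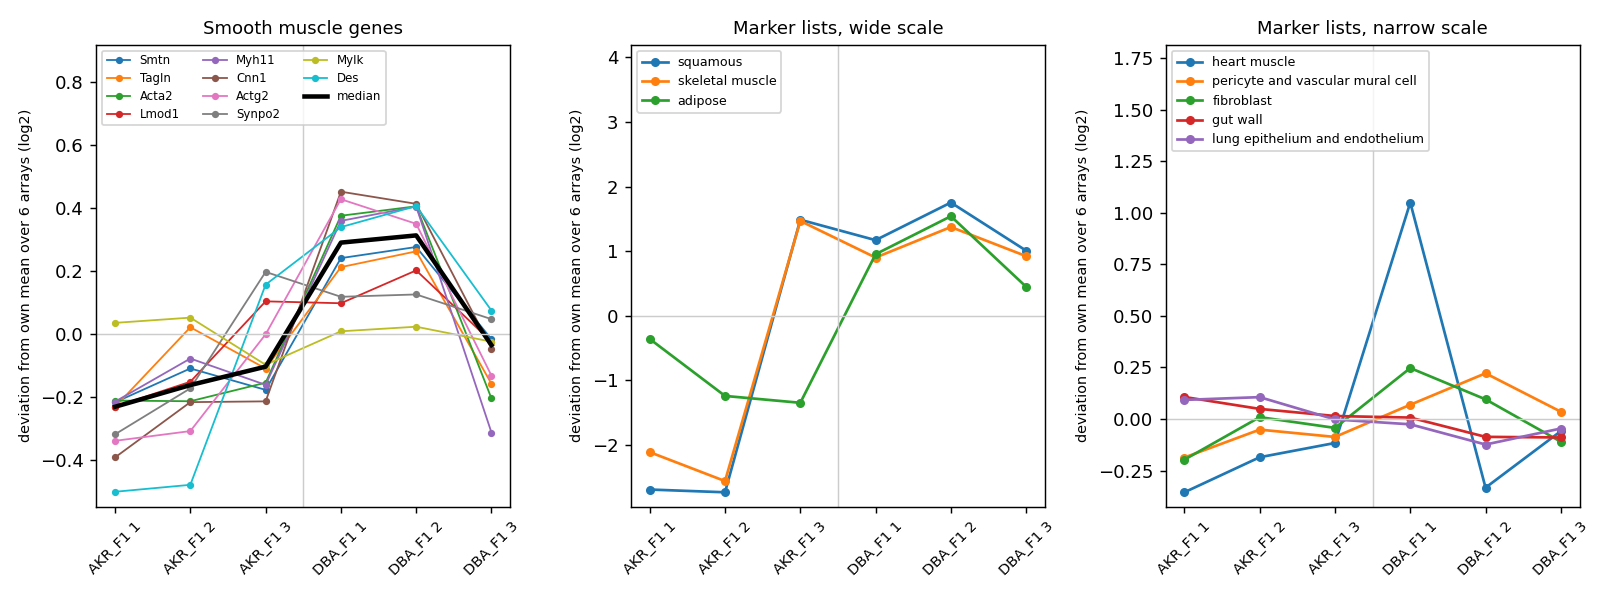
Deviation of the log2 signal from its own mean over the 6 arrays (vertical axis), by array, for the 10 genes with their median (left) and for the means of marker lists (middle and right, each on its own scale); lines only help the eye, since replicates have no order. The smooth muscle median is highest in DBA_F1 replicates 1 and 2, at 0.29 and 0.31, and the squamous and skeletal muscle lists are low in AKR_F1 replicates 1 and 2 alone.

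Lung markers were abundant on every array: all 17 measured epithelial and endothelial markers passed the filter, with a mean of 12.00 to 12.11 in AKR_F1 and 11.88 to 11.98 in DBA_F1, and 2 were called, Sftpb (0.32) and Napsa (0.34), both higher in AKR_F1. Of the markers of neighbouring tissues, the adipose list separated the groups by the widest gap. The mean of 8 adipose markers was 6.48 to 7.47 in AKR_F1 and 8.28 to 9.37 in DBA_F1. Of the 8, 6 were called, all lower in AKR_F1, against 1.06% of all genes in that direction (2.48% in either). Lep, among the 6, lay under the filter level of 4.72 on all 3 AKR_F1 arrays (4.31 to 4.61). It passed the filter only through DBA_F1. Pck1, also among the 6 (-3.58), lay under that level on AKR_F1 replicates 2 and 3 (3.67 and 4.17), against 7.23 to 8.91 in DBA_F1. The lung, pericyte and gut wall list means did not overlap between groups either. Their differences were smaller (0.13, -0.22 and 0.11, against -1.96 for adipose). The pericyte list holds Rgs5 (-1.07) and the gut wall list Prph (1.25), each the largest difference of its list. Of the 9 measured gut wall genes, 6 had a lower mean in AKR_F1, although the list mean was higher there. DBA_F1 replicate 3 was the lowest DBA_F1 array for adipose and smooth muscle, and also for the squamous, fibroblast, pericyte and gut wall lists. Within AKR_F1 the adipose mean was highest in replicate 1 (7.47), where the mean of the 10 smooth muscle genes was lowest (8.72). With the adipose mean as a covariate, an alternative added after the data were seen, the median difference of the 10 genes was -0.18. Acta2, Myh11 and Mylk changed sign (0.12 ± 0.33, 0.24 ± 0.41 and 0.11 ± 0.13, SE). Des, Synpo2 and Lmod1 lay farther below 0 than without the covariate (-0.66, -0.50 and -0.22). Since the adipose mean separates the groups, this fit cannot separate group from adipose signal well. It called 2 of the 13202 genes. The 12 squamous markers averaged 4.97, 4.93 and 9.15 in AKR_F1 replicates 1 to 3, against 8.67 to 9.41 in DBA_F1, and with them as a covariate the median was -0.20. Set against DBA_F1 alone, AKR_F1 replicate 3, whose squamous and skeletal muscle means lay within or above the DBA_F1 range, gave a median of -0.22, which has no replicate on the AKR_F1 side. Heart muscle markers averaged 9.33 to 9.57 in AKR_F1 and 9.35 to 10.73 in DBA_F1, with the highest value in DBA_F1 replicate 1 and the other DBA_F1 arrays at 9.35 and 9.63.

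Cells that could share the smooth muscle signal were also read. The 10 pericyte and mural cell markers averaged 7.47 to 7.60 in AKR_F1 and 7.69 to 7.87 in DBA_F1, with 0 of 10 called, and 6 of them had a lower mean in AKR_F1. Among them Rgs5 had 6.84, 6.84 and 7.52 in AKR_F1 replicates 1 to 3, against 8.25, 8.69 and 7.49 in DBA_F1 replicates 1 to 3. Its difference was the largest of the 10 (-1.07). Notch3, Higd1b, Cox4i2 and Trpc6 had a higher mean in AKR_F1 (0.01, 0.06, 0.03 and 0.27). The 10 fibroblast markers averaged 10.40 to 10.60 in AKR_F1 and 10.48 to 10.84 in DBA_F1, and the groups overlapped. Of them 7 had a lower mean in AKR_F1, and the list means differed by -0.15. Only 1 of 10 was called, Npnt, which was higher in AKR_F1 (0.43, limma adjusted p = 0.0395). Of the gut wall markers, Hand2, Barx1 and Elavl4 lay below the filter level in their means, Kit and Ano1 had 9.54 to 10.07 on every array, and 1 of 6 tested was called, the neuronal filament gene Prph, higher in AKR_F1 (1.25, limma adjusted p = 0.00452). Prph lay under the filter level of 4.72 on all 3 DBA_F1 arrays (4.21 to 4.51). It passed the filter only through AKR_F1, so its difference is measured against low signals. The gut wall list mean was 5.89 to 5.98 in AKR_F1 and 5.79 to 5.88 in DBA_F1. Prph enters that mean, and 6 of the 9 measured genes had a lower mean in AKR_F1. The part of these tissues in the smooth muscle differences was not tested, and the covariate fits do not settle it. In tissue RNA, fewer smooth muscle cells and less RNA per cell cannot be told apart. The 3′ to 5′ log2 signal difference of the actin control was 0.30 to 0.50 in AKR_F1 and 0.34 to 0.38 in DBA_F1, and array medians were 5.46 to 5.49.

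**Figure D4:**
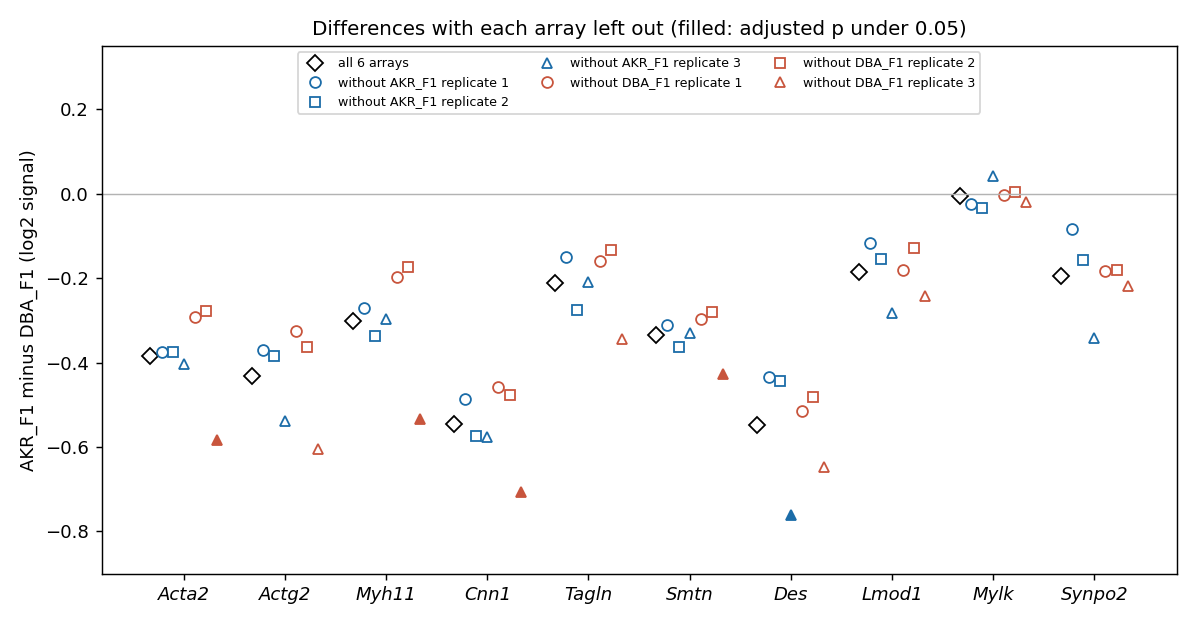
AKR_F1 minus DBA_F1 difference in log2 signal (vertical axis) of the 10 genes with all 6 arrays and with each array left out; filled symbols have an adjusted p under 0.05. Acta2, Myh11, Cnn1 and Smtn are filled without DBA_F1 replicate 3, and Des without AKR_F1 replicate 3.

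The outcome of the test turned on replicate 3 of each group. DBA_F1 replicate 3 was the lowest DBA_F1 array for all 10 genes, so leaving it out could only move the differences further down. Without that array the median difference was -0.48, and 4 of 10 genes were called, all lower in AKR_F1. In that fit 2.77% of all genes were called, and 1.83% in that direction. Without AKR_F1 replicate 3 Des was called and the other 9 genes were not, against 4.97% of all genes and 2.89% in that direction. Leaving out any of the other 4 arrays gave 0 calls and medians from -0.35 to -0.23. The share of all genes called was lower in those fits too, at 0.629% and 0.659% of all genes without AKR_F1 replicates 1 and 2, and 2.02% and 0.818% without DBA_F1 replicates 1 and 2. The differences of the 9 genes other than Mylk stayed below 0 in all 6 of these fits, while Mylk turned to 0.04 without AKR_F1 replicate 3 and to 0.0044 without DBA_F1 replicate 2.

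Related genes, in 4 lists that also hold striated muscle genes such as Myom1 and Ldb3, were split between the directions. The lists are thus broader than smooth muscle contraction. Of 108 genes in 4 lists, 96 had a probe set and 89 were tested. In these, 45 had a lower mean in AKR_F1, the median difference was -0.01 (0.02 for all genes), and 3 were called (3.37%, against 2.48% of all genes). Those 3 were Sgcb, lower in AKR_F1, and Cavin1 and Tead1, higher in AKR_F1.

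**Figure D5:**
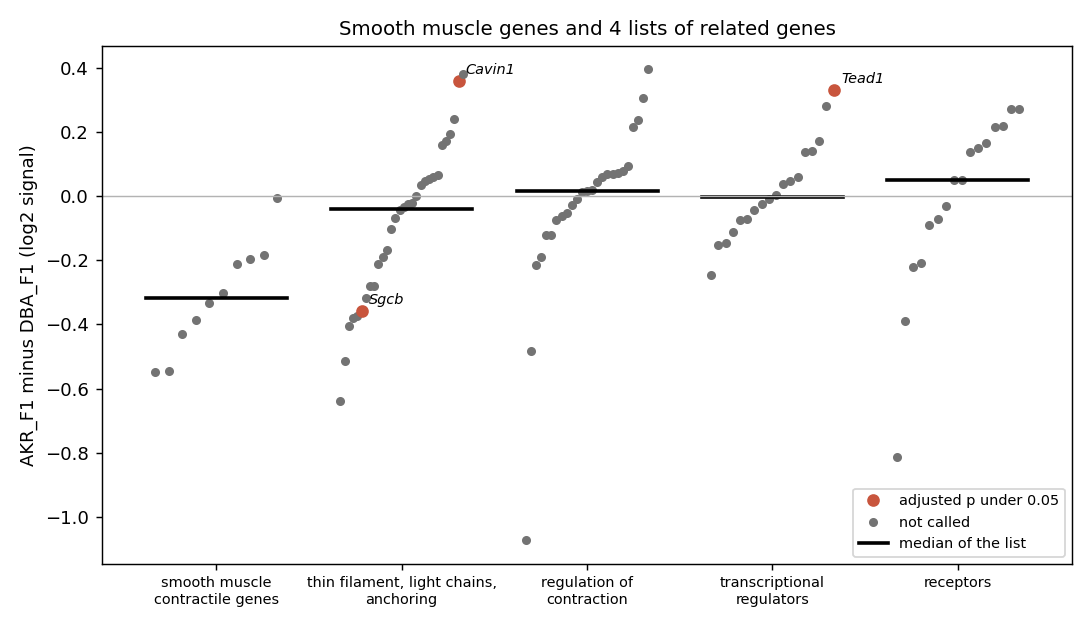
AKR_F1 minus DBA_F1 difference in log2 signal (vertical axis) of each tested gene in the smooth muscle contractile list and in 4 lists of related genes, sorted within each list; bars are medians and coloured points have an adjusted p under 0.05. The contractile list has its median at -0.32, and the 4 other medians lie between -0.04 and 0.05.

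Among 30 tested thin filament, light chain and anchoring genes the median was -0.04, 18 had a lower mean in AKR_F1, and 2 were called. The tropomyosins Tpm1, Tpm2 and Tpm4 differed by -0.28, -0.28 and 0.16. The light chains Myl9 and Myl6 differed by -0.19 and -0.02, and none of these was called. Beta-sarcoglycan (Sgcb), part of the membrane complex that ties the cytoskeleton to the matrix in smooth and striated muscle, had 7.57, 7.47 and 7.41 in AKR_F1 replicates 1 to 3, against 7.87, 7.86 and 7.80 in DBA_F1 replicates 1 to 3. The groups did not overlap, with a difference of -0.36 ± 0.06 (limma adjusted p = 0.0371), and its other tested probe sets were called too (-0.46 and -0.87). The call was lost with any 1 array left out (limma adjusted p = 0.0574 to 0.154). Cavin1, which coats caveolae, had 10.46, 10.44 and 10.30 in AKR_F1 replicates 1 to 3, against 9.99, 10.05 and 10.07 in DBA_F1 replicates 1 to 3. All AKR_F1 arrays were higher, with a difference of 0.36 ± 0.06 (limma adjusted p = 0.0267); a second probe set gave 0.69 and was called, and a dimmer one gave 0.12 and was not. The call was lost without AKR_F1 replicate 1 or 2 or DBA_F1 replicate 1 or 2 (limma adjusted p of 0.118, 0.121, 0.0643 and 0.104). The largest uncalled differences with a lower mean in AKR_F1 were those of the striated muscle genes Myom1 (-0.64) and Ldb3 (-0.51), low in AKR_F1 replicates 1 and 2 alone. In the other direction the largest was that of Mcam (0.38), a surface protein of vascular cells. Myom1 and Ldb3 were called when AKR_F1 replicate 3 was left out (-0.97 and -0.91, limma adjusted p = 0.00309 and 0.00582).

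Among 18 tested transcriptional regulators the median was -0.0020, and only Tead1 was called. This DNA-binding partner of the YAP coactivator had 9.74, 9.75 and 9.75 in AKR_F1 replicates 1 to 3, against 9.42, 9.43 and 9.41 in DBA_F1 replicates 1 to 3. The arrays of a group lay within 0.03 of each other, and the difference was 0.33 ± 0.04 (limma adjusted p = 0.00995). A dimmer probe set of Tead1 gave 0.05 (limma adjusted p = 0.818). The call was lost without AKR_F1 replicate 1 or 2, where the difference was again 0.33 (limma adjusted p = 0.0636 and 0.0594). By the mean of its probe sets Tead1 differed by 0.19 and was not called (limma adjusted p = 0.127). The regulators named above as the switch of the contractile programme were not called: serum response factor (Srf) differed by -0.15 ± 0.11 (limma adjusted p = 0.510) and myocardin (Myocd) by 0.05 ± 0.11 (limma adjusted p = 0.866). Csrp2, a LIM protein of smooth muscle, differed by -0.25 (limma adjusted p = 0.0896) and the developmental factor Gata6 by 0.28 (limma adjusted p = 0.241).

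Of 25 tested genes that regulate contraction 0 were called by limma (6 at an unadjusted p under 0.05, or 24%, against 19.1% of all genes), with a median of 0.02. The largest differences were those of Rgs5, an inhibitor of G protein signalling in mural cells (-1.07 ± 0.32, limma adjusted p = 0.146), and Mrvi1, the substrate through which cGMP kinase quiets calcium release (-0.48 ± 0.13, limma adjusted p = 0.118). In the other direction the largest were the cGMP phosphodiesterase Pde5a (0.40 ± 0.08, limma adjusted p = 0.0640) and phospholamban (Pln, 0.31 ± 0.32, limma adjusted p = 0.661), an inhibitor of the calcium pump. Pde5a had 9.63, 9.63 and 9.46 in AKR_F1 replicates 1 to 3, against 9.34, 9.09 and 9.11 in DBA_F1 replicates 1 to 3, without overlap; leaving out AKR_F1 replicate 3 gave 0.45 and leaving out DBA_F1 replicate 1 gave 0.48, both called (limma adjusted p = 0.0392 and 0.0341). Rgs5 (-1.40, limma adjusted p = 0.0479) and Mrvi1 (-0.63, limma adjusted p = 0.0204) were called when DBA_F1 replicate 3 was left out, as were Acta2, Myh11, Cnn1 and Smtn. Pln was called when DBA_F1 replicate 1, its highest array, was left out (0.71, limma adjusted p = 0.0399).

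Of 16 tested receptors for contractile and relaxing signals 0 were called by limma, with a median of 0.05. At an unadjusted p under 0.05 there were 5 (31.2%, against 19.1% of all genes), with differences in both directions. The prostaglandin E receptor Ptger3 had 5.10, 4.69 and 5.20 in AKR_F1 replicates 1 to 3, against 6.05, 6.01 and 5.37 in DBA_F1 replicates 1 to 3, and again DBA_F1 replicate 3 was the lowest of its group. It differed by -0.81 ± 0.21 (limma adjusted p = 0.112) and was called when DBA_F1 replicate 3 was left out (-1.03, limma adjusted p = 0.0370). The angiotensin receptor Agtr1a differed by -0.39 ± 0.17, the prostacyclin receptor Ptgir by 0.27 ± 0.11 and the serotonin receptor Htr2b by 0.27 ± 0.09, with limma adjusted p of 0.275, 0.245 and 0.171. Agtr1a was called when DBA_F1 replicate 1 was left out (-0.58, limma adjusted p = 0.0382).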

How the data were processed

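Total RNA, extracted with Trizol and labelled with biotin, was measured on Affymetrix arrays, per the labels' protocols. The deposited values are log2 signals per probe set, with nearly equal medians between arrays; per the submitters' processing notes MAS5 and RMA were used, and which of them made the table is not given in the sources used here. Gene names came from the platform annotation (34945 probe sets with 1 symbol, 932 with several, which were not named, and 9160 with none), and symbols of listed genes were updated by gene ID. Promoters came from RefSeq, GRCm38.p6.

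Control probe sets (64) were set aside and those in the lowest 40% of mean signal were dropped, leaving 27022 probe sets and 13202 genes. The deposited log2 values were fitted without further normalization with limma 3.58.1 in R 4.3.3 (lmFit, eBayes with a mean-variance trend, group as the only term, two-sided), with Benjamini-Hochberg adjustment and an adjusted p under 0.05 as a call. The fit was also run on simulated arrays with known shifts, drawn independently for each probe set. Those arrays hold no effect shared between probe sets, so they do not show how the fit does with one. No detection calls were used. With 3 arrays a group, precision is limited by their number.

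Named are all 10 genes and, of 4 lists of related genes, every called gene and the 2 largest differences in each direction. Likeness is the mean absolute log2 difference of centred profiles, among genes with at least 0.75 of the range of the median profile. The members, lists, rule and alternatives were chosen with earlier results of these data known. Myocd, Acta1, the tropomyosin and light chain genes, and marker genes given as examples were named after their values were seen. Alternatives covered normalization, the filter, eBayes options, array weights, the replicate block, covariates, summaries of probe sets and leaving out each array.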

Additional observations from a re-analysis of the deposited data

How the results depend on the processing

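In the alternatives the median difference of the 10 smooth muscle genes stayed below 0 (-0.48 to -0.18), and with 1 array left out it ran from -0.48 to -0.23. The count of called genes was 0 in the fit to all 6 arrays and in most alternatives, 1 with array weights (Cnn1), and 0 to 4 with 1 array left out. The count of called related genes was 3 in the fit to all 6 arrays, 5 with array weights, 0 with the squamous, skeletal muscle or adipose covariate or for AKR_F1 replicate 3 alone against DBA_F1, and 0 to 8 with 1 array left out. Calls over all genes fell too, to 120, 146, 2 and 34 in those fits against 327, while with the squamous covariate Sgcb differed by -0.42 and Tead1 by 0.33, against -0.36 and 0.33 without it. With the replicate number as a block 0 smooth muscle genes, 2 related genes and 234 of all genes were called (327 without it); deviations of same-numbered arrays from their group means correlated at 0.31, -0.23 and -0.05, so the numbers were not taken to pair the samples.

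Signs changed only for results that were not called in the fit to all 6 arrays, and the cause was not tested. Mylk was 0.0042 with array weights, 0.014 by the mean of its probe sets, 0.10 by its most variable probe set, 0.11 with the adipose covariate, 0.041 without AKR_F1 replicate 3 and 0.0044 without DBA_F1 replicate 2, in a leave-one-out range of -0.034 to 0.041. Its probe set 1425505_at was 0.17 with the adipose covariate and 0.0065 without AKR_F1 replicate 3, in a leave-one-out range of -0.11 to 0.0065. Acta2 was 0.12 and Myh11 0.24 with the adipose covariate. Lmod1 was 0.012 with the squamous covariate and 0.012 for AKR_F1 replicate 3 alone. Synpo2 was 0.079 with the squamous covariate, 0.043 with the skeletal muscle covariate and 0.10 for AKR_F1 replicate 3 alone, and its probe set 1450828_at was 0.084, 0.060 and 0.082 in the same fits. For AKR_F1 replicate 3 alone Myom1 was 0.016, Srf 0.00014 and Ldb3 0.27, and Ldb3 was 0.21 and 0.13 with the squamous and skeletal muscle covariates. The adipose mean separates the groups completely, so group and adipose signal are hard to separate in that fit. The fit of AKR_F1 replicate 3 alone assumes that this array varies like the DBA_F1 arrays. Low signals have no stated background level, which limits Lmod1 and the 4 dim probe sets most.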
